A study of Homo sapiens with 9 samples.

Results

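The H/ACA RNA genes and the small Cajal body RNA (scaRNA) genes on the array were taken as all probes whose gene symbol starts with SNORA or SCARNA. They came to 126 probes for 125 genes, of 47310 probes on the array. Of these, 102 probes carried SNORA symbols and 24 carried SCARNA symbols, and SNORA73B had 2 probes. The members were chosen by symbol alone and by no measured value, but the family was taken up with earlier results of these arrays known, among them the fall of SNORA71C and the joint variation of small RNA genes between replicate arrays. The counts of changed members below are therefore descriptions.

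H/ACA RNAs fold into hairpins joined by a hinge (box H) and end shortly after an ACA triplet. Bound to dyskerin (DKC1), NHP2, NOP10 and GAR1, most of them guide the conversion of uridine to pseudouridine, the SNORA group mainly in ribosomal RNA within the nucleolus. The scaRNAs guide the same or a second modification, 2'-O-methylation, in the small nuclear RNAs of the spliceosome, within Cajal bodies. The label of the family fits only in part, because SCARNA symbols also cover guides of the C/D type, such as SCARNA2, SCARNA7, SCARNA9 and SCARNA17, and composites of both types, such as SCARNA5, SCARNA6, SCARNA10 and SCARNA12. In vertebrates most of these RNAs are cut out of introns of a host gene. The mature RNAs carry no poly(A) tail, whereas the labelling kit named in the labels primes from such tails, so it is not known here whether a probe read mature, adenylated or precursor RNA.

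The samples came from HEK293T, a line of human embryonic kidney origin that carries the SV40 large T antigen. One group received the plasmid pRK5 encoding LAV-BPIFB4, the longevity-associated variant of a protein of the BPI fold family. Another received pRK5 with WT-BPIFB4, and the third received an empty plasmid (empty vector). All 3 groups were transfected with Lipofectamine 2000 and, 24 hours later, deprived of serum for 18 hours, and each group had 3 arrays. BPIFB4 was thus delivered on a plasmid to a single cell line. No label tells whether the replicates of a group were cultured separately, and the p-values measure only the spread among these arrays.

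Median signal ran from 93.1 to 139 over the 9 arrays, with 18940 to 20658 probes detected on each. The 9 arrays shared 1 chip, where the arrays of a group sat side by side, so position and group cannot be told apart. The probe for BPIFB4 itself was above background on 0 of 9 arrays, and whether it lies in the transfected sequence was not tested. Of 6 HEK293T marker genes (VIM, KRT8, KRT18, NEFL, NEFM and PAX2), 4 were detected on all 9 arrays, KRT8 on 8 and PAX2 on 0. All 4 endothelial markers were detected on 0 arrays. CD14 and COL1A1 were detected on 9, PTPRC on 0, DCN on at most 1 and COL1A2 on at most 2. In bulk RNA of this kind, a change in the share of cells and a change in RNA per cell cannot be told apart.

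One array stood furthest from its group for the scaRNA probes. In WT-BPIFB4 replicate 1 the kept SCARNA probes lay a median of -1.09 on the log2 scale from the mean of WT-BPIFB4 replicates 2 and 3, and 9 of 17 lay below by more than 1. The SNORA median was -0.13 with 3 of 77 that far below, and over all 20914 kept probes it was -0.01 with 207 that far below. Probes for spliceosomal and Y RNAs had a median of -0.56 there, with 3 of 18 that far below. The counts for WT-BPIFB4, and its changes for the 12 genes plotted by array below, SNHG17 and TERC, are shown with and without this array, and its other values with all 9 arrays. Because it was singled out for its low scaRNA values, more and larger scaRNA rises without it follow from that choice and support nothing. Empty vector replicate 2 was also low. Its scaRNA probes lay a median of -0.35 from the empty vector mean, with 23.5% of the 17 above that mean. Without empty vector replicate 2 the members' median log2 change with LAV-BPIFB4 was 0.64, against 0.71 with all 9 arrays. The cause was not tested for either array.

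More members were detected in the LAV-BPIFB4 group than in the others. A probe counted as detected on an array where its detection p-value, which compares it with the negative controls of that array, was under 0.05. Of the 126 probes, 75 were detected on all 3 LAV-BPIFB4 arrays, 67 on all 3 WT-BPIFB4 arrays and 58 on all 3 empty vector arrays. Over all 47310 probes these shares were 34.4%, 34.4% and 35%. No kept member was detected on all 3 empty vector arrays and missed on a LAV-BPIFB4 array. Of the kept members, 17 were detected on all 3 LAV-BPIFB4 arrays and missed on at least 1 empty vector array. Neither count was made over all probes, so no background stands beside them and they are descriptions only. SNORA11B was the 1 probe detected on all 3 LAV-BPIFB4 arrays and on 0 empty vector arrays, and its change did not pass the test (log2 0.95, limma adjusted p = 0.0849). This gene was singled out after its values were seen.

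The filter kept a probe that was detected on at least 3 of the 9 arrays, in any group. It passed 94 members (74.6%), namely 77 SNORA and 17 SCARNA probes, against 44.2% of all probes and 41.6% of the 178 probes for box C/D RNAs (SNORD). Members that passed only because one group was high had to differ, so counts over all 126 are given as well. Just inside the filter, on 3 arrays, were SCARNA21, SNORA11C, SNORA17B, SNORA71E and SNORA5B. Just outside, on 2 arrays, were SNORA11, SNORA46, SNORA78 and SCARNA9L. Among the 19 probes detected on 0 arrays were those for SCARNA2, SCARNA6, SCARNA15, SNORA71B and SNORA81. Of the 94 kept members, 58 were detected on all 9 arrays.

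With LAV-BPIFB4 the scaRNA and H/ACA RNA probes were mostly higher than with the empty vector. Of the 94 kept members, 39 rose and 1 fell at an adjusted p under 0.05 in limma (Benjamini-Hochberg over all 20914 kept probes), where 7.72% of all kept probes passed, 3.64% upward and 4.08% downward. The median log2 change was 0.71, against 0.01 over all kept probes. It was 0.44 over all 126 probes (SCARNA 0.89), 0.32 without background subtraction and 0.28 with the deposited value table. The LAV-BPIFB4 columns of that value table matched none of these arrays. Changes with LAV-BPIFB4 from it, here and below, are therefore not a reprocessing of the same arrays. Among SCARNA probes 11 of 17 rose, with a median change of 1.33, and among SNORA probes 28 of 77 rose and 1 fell, with a median change of 0.58. On 53 of the 94 probes every LAV-BPIFB4 array lay above every empty vector array, and on 2 every one lay below, where 14.7% and 15.9% of all kept probes did so. Over all 126 members without the filter, 33 rose and 1 fell, where 1.95% of all 47310 probes passed, 0.949% upward and 1% downward.

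Other noncoding small RNA probes moved in the same direction. Of 74 kept SNORD probes 28 rose and 0 fell with LAV-BPIFB4, with a median log2 change of 0.60. Of 18 kept probes for spliceosomal and Y RNAs (RNU, RNVU and RNY symbols) 15 rose and 0 fell, with a median of 1.72. The members' changes were thus not particular to guide RNAs of the H/ACA type. The members' count with LAV-BPIFB4 leaned on replicate 1 of that group, without which 14 rose and 1 fell, where 524 of all 20914 kept probes were called. It was 25 after median scaling, where 243 of all kept probes were called, and 6 without the intensity trend of the variance, where 210 were. Each alternative that tested SNORA7B, SNORA21, SNORA67 and SNORA80E also called their rises with LAV-BPIFB4.

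With WT-BPIFB4 fewer members passed. Of the 94, 6 rose and 1 fell against the empty vector (limma, adjusted over all kept probes), where 1.07% of all kept probes passed, 0.607% upward and 0.464% downward. The median log2 change was 0.34, at 0.74 for SCARNA and 0.30 for SNORA probes, and 1 of 17 SCARNA probes rose. Without WT-BPIFB4 replicate 1, 21 rose and 1 fell, where 7.59% of all kept probes passed (3.24% upward and 4.35% downward), and 10 of 17 SCARNA probes rose with a median change of 1.11. Leaving out other arrays lowered the count. Without WT-BPIFB4 replicate 2, or without replicate 3, 0 rose and 1 fell, and without empty vector replicate 1, or without replicate 3, 1 rose and 1 fell. Over all 126 probes without the filter, 1 rose and 1 fell, where 0.222% of all probes passed (0.152% upward and 0.0698% downward). The comparison of WT-BPIFB4 with the empty vector uses the same 3 empty vector arrays as that of LAV-BPIFB4.

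Between the BPIFB4 forms no member was called. Of the 94 members 0 passed in limma, as did 0% of all kept probes. An unadjusted p under 0.05 was found for 14 members (14.9%) and for 976 of all kept probes (4.67%). The members' median log2 difference, LAV-BPIFB4 over WT-BPIFB4, was 0.32, with 0.59 for SCARNA and 0.28 for SNORA probes. The larger number called with LAV-BPIFB4 than with WT-BPIFB4 is thus not shown to be a difference between the forms.

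**Figure D1:**
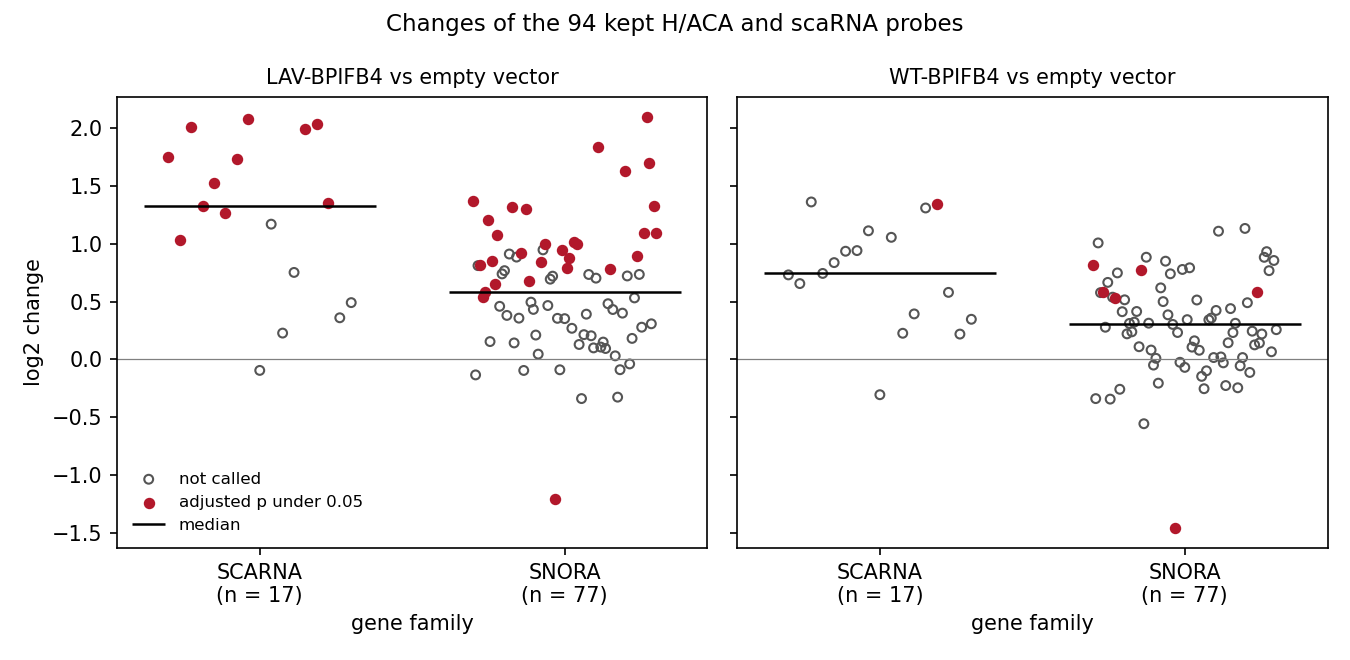
Log2 change of each of the 94 kept probes (circles) against the empty vector, with LAV-BPIFB4 on the left and WT-BPIFB4 on the right, split into 17 SCARNA and 77 SNORA probes. Filled circles passed an adjusted p of 0.05 in limma and the black lines are medians, 1.33 and 0.58 with LAV-BPIFB4 and 0.74 and 0.30 with WT-BPIFB4. SNORA71C is the filled circle below 0 in both panels.

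The level of the family varied between arrays of one group. Taken as each array's median difference from the empty vector mean on the log2 scale, the SCARNA probes stood at 1.53, 1.18 and 1.22 on LAV-BPIFB4 replicates 1, 2 and 3. They stood at 0.05, 0.94 and 1.27 on the WT-BPIFB4 arrays and at 0.27, -0.35 and 0.00 on the empty vector arrays. WT-BPIFB4 replicate 1 thus lay within the empty vector range, replicate 2 lay between both ranges and replicate 3 within the LAV-BPIFB4 range. The SNORA probes stood at 0.76, 0.44 and 0.55 with LAV-BPIFB4, at 0.18, 0.29 and 0.44 with WT-BPIFB4 and at -0.02, -0.09 and 0.03 with the empty vector, so the BPIFB4 arrays of both forms lay above all empty vector arrays. The median SD between replicates was 0.35, 0.72 and 0.34 for SCARNA probes in the LAV-BPIFB4, WT-BPIFB4 and empty vector groups, against 0.18, 0.23 and 0.21 over all kept probes.

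**Figure D2:**
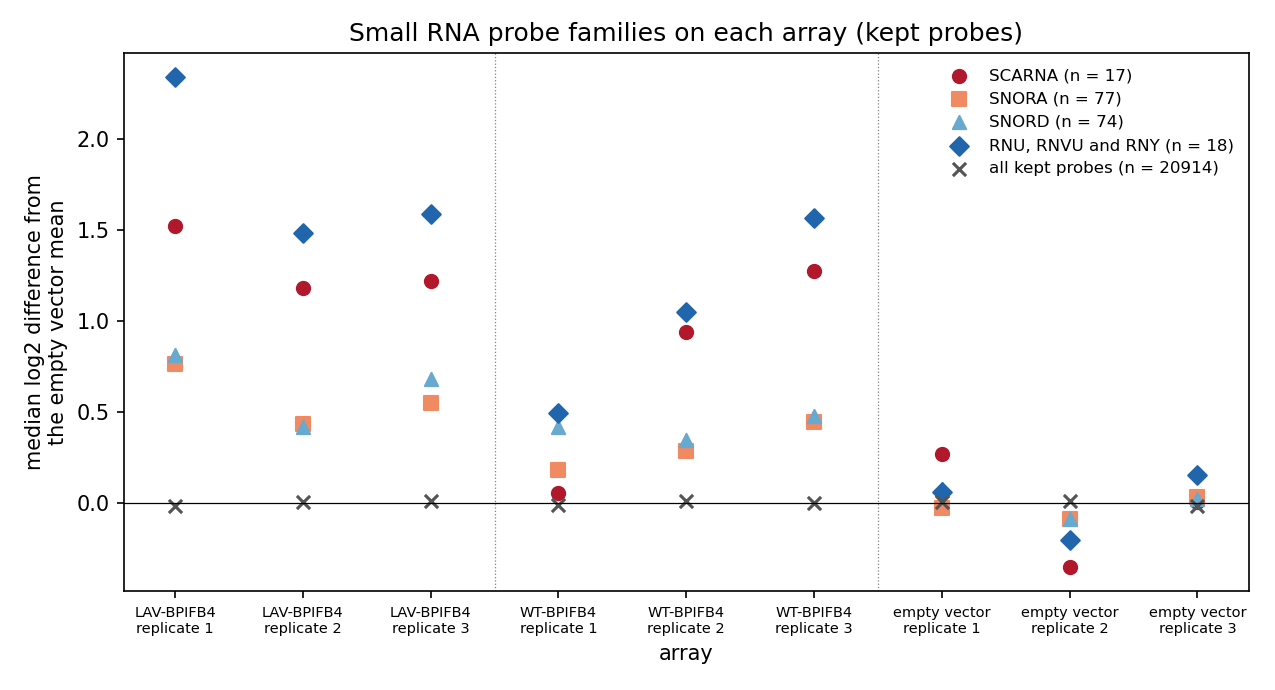
Median log2 difference from the empty vector mean on each of the 9 arrays, for kept SCARNA, SNORA, SNORD and spliceosomal or Y RNA probes and for all kept probes, with each marker the median of one family on one array. WT-BPIFB4 replicate 1 has a SCARNA median of 0.05, against 0.94 and 1.27 on the other WT-BPIFB4 arrays, while its SNORD median of 0.42 lies between their 0.35 and 0.48.

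Between the families, the scaRNA probes had the larger median change. SCARNA8 (U92), an H/ACA guide for U2, measured 10.13, 10.17 and 10.13 log2 units on the LAV-BPIFB4 arrays, 8.19, 9.93 and 10.26 on the WT-BPIFB4 arrays and 8.83, 7.21 and 8.43 on the empty vector arrays. All LAV-BPIFB4 arrays lay above all empty vector arrays, and WT-BPIFB4 replicate 1 lay among the empty vector arrays. SCARNA8 rose 3.97-fold with LAV-BPIFB4 (log2 1.99 ± 0.38 SE, limma adjusted p = 0.00369). Its WT-BPIFB4 change was 1.31 with replicate 1 (adjusted p = 0.0948) and 1.94 without it (adjusted p = 0.000899).

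SCARNA14 (U100), an H/ACA scaRNA, measured 9.24, 8.79 and 8.88 with LAV-BPIFB4, 7.23, 8.83 and 8.80 with WT-BPIFB4 and 7.20, 6.31 and 7.32 with the empty vector. It rose 4.09-fold with LAV-BPIFB4 (limma adjusted p = 0.000787), and in the WT-BPIFB4 group replicate 1 alone overlapped the empty vector arrays. It also rose with WT-BPIFB4, 2.54-fold (adjusted p = 0.0447), and by 1.87 on the log2 scale without replicate 1 (adjusted p = 0.000221). That call was lost in 15 of 19 alternatives.

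SCARNA11 measured 8.13, 7.10 and 7.41 with LAV-BPIFB4, 5.96, 6.92 and 7.82 with WT-BPIFB4 and 5.93, 5.15 and 5.55 with the empty vector, and was detected on 2 of 3 empty vector arrays. Its rise with LAV-BPIFB4 was 4.02-fold (log2 2.01, limma adjusted p = 0.00214), with no overlap between the groups, and the log2 change was 0.94 without background subtraction and 1.01 with the value table. The WT-BPIFB4 arrays lay above the empty vector arrays by a small margin in replicate 1, and the change of 1.36 did not pass (adjusted p = 0.0625) unless that array was left out (1.83, adjusted p = 0.00286). SCARNA9 (mgU2-19/30), a C/D guide for U2 that lies in the centriole gene CEP295, measured 8.23, 8.24 and 7.88 with LAV-BPIFB4, 6.48, 7.30 and 7.51 with WT-BPIFB4 and 7.46, 5.46 and 6.18 with the empty vector. It rose 3.36-fold with LAV-BPIFB4 (log2 1.75, adjusted p = 0.00518), whose arrays lay above all others, and by 0.82 with the value table. Its WT-BPIFB4 change of 0.73 did not pass with replicate 1 (adjusted p = 0.316) or without it (1.04, adjusted p = 0.0912).

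The other 13 kept scaRNAs changed by between -0.10 and 2.08 on the log2 scale with LAV-BPIFB4. SCARNA10 (U85), a composite guide for U5, changed by 0.23 with LAV-BPIFB4 and by 0.23 with WT-BPIFB4, and neither passed (adjusted p = 0.375 and 0.493). SCARNA12, another composite, changed by 0.36 with LAV-BPIFB4 (adjusted p = 0.364). SCARNA13 (U93) rose by 1.03 (adjusted p = 0.0073) and SCARNA22, which lies in the histone methyltransferase gene NSD2, rose by 1.53 (adjusted p = 0.0131). SCARNA22 was detected on 2 of 3 empty vector arrays, where it measured 5.33, 5.32 and 4.69. These 4 scaRNAs were singled out after their values were seen.

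SNORA80E is an H/ACA RNA of the KHDC4 gene, also called ACA42 or SNORA42 and studied in lung cancer. It measured 9.38, 7.63 and 8.28 with LAV-BPIFB4, 6.87, 7.05 and 7.88 with WT-BPIFB4 and 6.53, 6.16 and 6.31 with the empty vector. It rose 4.27-fold with LAV-BPIFB4 (log2 2.09 ± 0.32 SE, limma adjusted p = 0.000651). The log2 change was 1.62 without LAV-BPIFB4 replicate 1, the highest array, and 1.29 without background subtraction. It was 1.11 with the value table, whose LAV-BPIFB4 columns matched none of these arrays. Each of these changes passed. Both BPIFB4 groups lay wholly above the empty vector arrays, but the WT-BPIFB4 change of 0.93 did not pass (adjusted p = 0.158; 1.13 and adjusted p = 0.0566 without replicate 1).

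SNORA7B, an H/ACA guide for ribosomal RNA, was the member with the smallest adjusted p. It measured 9.29, 9.11 and 9.24 with LAV-BPIFB4, 8.65, 8.68 and 8.65 with WT-BPIFB4 and 7.74, 7.68 and 8.13 with the empty vector. The 3 groups did not overlap. It rose 2.57-fold with LAV-BPIFB4 (limma adjusted p = 1.61e-05) and 1.76-fold with WT-BPIFB4 (log2 0.81, adjusted p = 0.0108). The WT-BPIFB4 change was 0.82 without replicate 1 (adjusted p = 0.00668), and its call was lost in 6 of 19 alternatives. The difference of 0.55 between the forms did not pass (adjusted p = 0.967). SNORA21 measured 7.70, 6.87 and 7.40 with LAV-BPIFB4, 6.31, 6.45 and 7.03 with WT-BPIFB4 and 6.09, 5.29 and 5.08 with the empty vector, where 2 of 3 arrays detected it. It rose 3.57-fold with LAV-BPIFB4 (log2 1.84, adjusted p = 0.000787). This log2 change was 0.81 without background subtraction and 0.72 with the value table, and both passed. Its WT-BPIFB4 change of 1.11, again with no overlap, had an adjusted p of 0.0638 with replicate 1, and without it the change was 1.25 (adjusted p = 0.0226).

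SNORA79 (ACA65) followed the pattern of the scaRNAs across the WT-BPIFB4 arrays. It measured 9.78, 10.42 and 9.91 with LAV-BPIFB4, 8.42, 9.99 and 10.23 with WT-BPIFB4 and 8.10, 8.14 and 9.01 with the empty vector. It rose 3.08-fold with LAV-BPIFB4 (limma adjusted p = 0.00497). Its WT-BPIFB4 change was 1.13 with replicate 1 (adjusted p = 0.0895) and 1.70 without it (adjusted p = 0.000346).

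SNORA67, SNORA10 and SNORA3B moved less with LAV-BPIFB4 than the other risen genes plotted by array. SNORA67, an H/ACA RNA of the EIF4A1 gene, measured 10.80, 10.45 and 10.57 with LAV-BPIFB4, 10.04, 10.33 and 10.49 with WT-BPIFB4 and 9.55, 9.80 and 9.78 with the empty vector. It rose 1.86-fold with LAV-BPIFB4 and 1.49-fold with WT-BPIFB4 (limma adjusted p = 0.000753 and 0.0469), and both BPIFB4 groups lay above every empty vector array. SNORA10, which lies in the ribosomal protein gene RPS2, measured 10.27, 10.33 and 10.39 with LAV-BPIFB4, 10.29, 10.14 and 10.21 with WT-BPIFB4 and 9.56, 9.80 and 9.69 with the empty vector. Its rises were 1.57-fold and 1.44-fold (adjusted p = 0.00335 and 0.0372), again with no overlap. SNORA3B, of the ribosomal protein gene RPL27A, measured 8.57, 8.30 and 8.72 with LAV-BPIFB4, 8.57, 8.37 and 8.20 with WT-BPIFB4 and 7.41, 7.96 and 7.45 with the empty vector. It rose 1.89-fold and 1.71-fold (adjusted p = 0.00546 and 0.0468), and its array values did not overlap with those of the empty vector either. Without WT-BPIFB4 replicate 1 the log2 changes of SNORA67, SNORA10 and SNORA3B were 0.70, 0.49 and 0.68 (adjusted p = 0.00474, 0.0192 and 0.0413), but under most alternatives these 3 rises with WT-BPIFB4 did not pass.

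**Figure D3:**
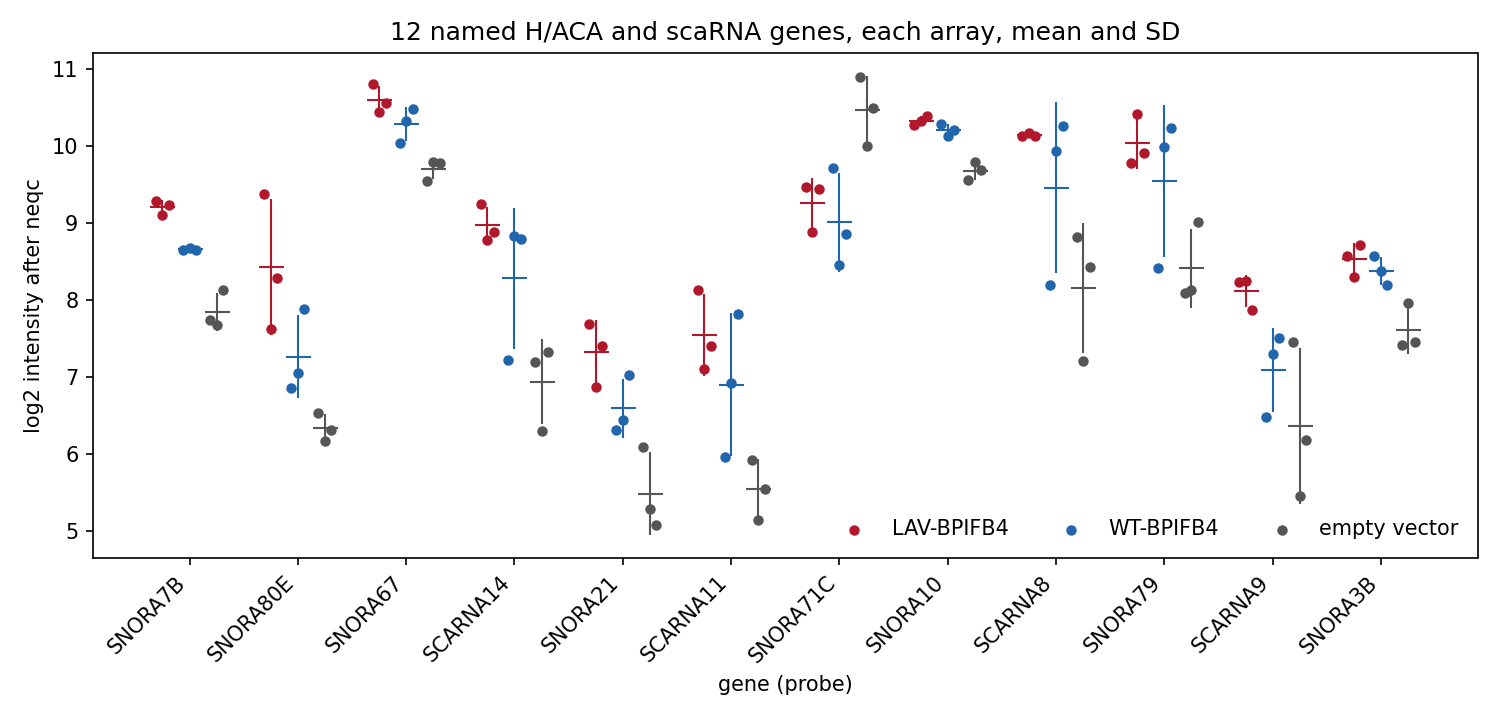
Log2 intensity of 12 genes on each array (dots), with group means (bars) and SD (whiskers), in the order LAV-BPIFB4, WT-BPIFB4 and empty vector within each gene. The 12 are the called members with the smallest adjusted p. For 11 genes every LAV-BPIFB4 array lies above every empty vector array, and for SNORA71C every one lies below. This separation largely follows from how the genes were chosen. Over all kept probes 14.7% lay wholly above and 15.9% wholly below. Levels of different probes are not comparable.

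SNORA71C was the 1 member that fell. It measured 9.47, 8.88 and 9.44 with LAV-BPIFB4, 9.72, 8.46 and 8.86 with WT-BPIFB4 and 10.90, 10.01 and 10.49 with the empty vector, so that all 6 BPIFB4 arrays lay below all 3 empty vector arrays. The log2 change was -1.20 with LAV-BPIFB4 (limma adjusted p = 0.00641) and -1.45 with WT-BPIFB4 (adjusted p = 0.00329), or -1.81 without WT-BPIFB4 replicate 1 (adjusted p = 0.000101). Both calls were lost without the intensity trend (adjusted p = 0.0953 and 0.151). Its host transcript moved the other way. SNHG17, a long noncoding RNA gene that carries several SNORA71 copies, measured 10.89, 10.85 and 10.82 with LAV-BPIFB4, 10.97, 10.74 and 10.91 with WT-BPIFB4 and 10.01, 9.87 and 9.87 with the empty vector. It rose 1.91-fold with LAV-BPIFB4 and 1.94-fold with WT-BPIFB4 (adjusted p = 4.55e-05 and 5.65e-05), and the call with WT-BPIFB4 was lost after median scaling (adjusted p = 0.0842). Without WT-BPIFB4 replicate 1 the change of SNHG17 was 0.91 (adjusted p = 0.000188).

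The other SNORA71 probes did not follow SNORA71C. SNORA71A, in the same host, measured 5.85, 5.83 and 6.30 with LAV-BPIFB4, 5.91, 6.25 and 6.66 with WT-BPIFB4 and 5.77, 5.82 and 6.29 with the empty vector, and its changes of 0.03 and 0.31 did not pass (limma adjusted p = 0.959 and 0.609). SNORA71D was detected on 5 arrays, with changes of 0.27 and 0.11 that did not pass (adjusted p = 0.609 and 0.894), SNORA71B was detected on 0, and SNORA71E, hosted by SNHG11, was detected on 3. SNHG11 rose by 0.81 with LAV-BPIFB4 and by 0.93 with WT-BPIFB4 (adjusted p = 0.0317 and 0.0483), while SNORA71E changed by -0.33 and -0.25 (adjusted p = 0.572 and 0.757). The SNORA71 copies are close in sequence, and how far their probes tell them apart was not tested. The same limit holds for the next pairs, named for their shared sequence. SNORA3A rose with LAV-BPIFB4 by 0.84 (limma adjusted p = 0.0193), beside SNORA3B in the same host, and SNORA7A, of RPL32, rose by 0.995 (adjusted p = 0.0206), beside SNORA7B. SNORA73A (U17), which is needed for processing of ribosomal RNA rather than for its modification, rose by 1.00 (adjusted p = 0.0251), and the 2 probes for SNORA73B changed by 0.72 and 0.73 and did not pass (adjusted p = 0.0666 and 0.0537).

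The host genes show what these RNAs share in position. A host was the gene whose span holds the member in RefSeq, without regard to strand. Of the 94 kept members, 79 lay in exactly 1 such gene, 14 in several and 1 in none. Of the 79, 70 had a host with a kept probe, for 55 hosts. With LAV-BPIFB4, 29 of these 70 members rose and 1 fell, while 4 of the 55 hosts rose and 6 fell (limma, adjusted over all kept probes), where 3.64% of all kept probes rose and 4.08% fell. The median change was 0.69 for the members and -0.07 for the 55 hosts.

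Of the 29 risen members, 26 had a host that was not called, 1 a host that rose and 2 a host that fell. Over all kept probes 7.72% were called, and of the 55 hosts 4 rose and 6 fell. Most hosts were thus not called, so the 26 does not show members parting from their hosts. The host that rose was SNHG15, a noncoding host gene that holds SNORA9. SNORA9 rose by 1.32 with LAV-BPIFB4 (limma adjusted p = 0.0142) and SNHG15 by 0.80 (adjusted p = 0.000516). With WT-BPIFB4 SNHG15 also rose, by 0.74 (limma adjusted p = 0.00211), while SNORA9 changed by 0.24 and did not pass (adjusted p = 0.765). SNORA9 measured 8.14, 6.70 and 6.85 with LAV-BPIFB4 and 5.51, 6.30 and 5.93 with the empty vector, with replicate 1 highest. The 2 members with a fallen host were SCARNA23 in POLA1 and SNORA79 in GTF2A1. POLA1 encodes the catalytic subunit of DNA polymerase alpha, and GTF2A1 a subunit of the transcription factor TFIIA.

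SCARNA23 measured 9.05, 8.29 and 8.35 with LAV-BPIFB4, 6.16, 8.31 and 8.33 with WT-BPIFB4 and 7.02, 5.64 and 6.81 with the empty vector, and rose by 2.08 with LAV-BPIFB4 (limma adjusted p = 0.00582). POLA1 measured 9.92, 10.03 and 9.85 with LAV-BPIFB4, 10.37, 10.23 and 10.00 with WT-BPIFB4 and 10.69, 10.69 and 10.71 with the empty vector, and its change with LAV-BPIFB4 was -0.77 (adjusted p = 0.00106). GTF2A1 changed by -0.71 (adjusted p = 0.0302). The SNORA9, SCARNA23 and SNORA79 pairs were singled out after their values were seen. The hosts of SNORA67 (EIF4A1), SNORA10 (RPS2) and SNORA3B (RPL27A) changed by -0.03, -0.05 and -0.07 with LAV-BPIFB4, and none passed (adjusted p = 0.895, 0.772 and 0.713). HAUS6, the host of SCARNA8 and a gene of the augmin complex, changed by -0.94 with an adjusted p of 0.0591. It measured 4.64, 5.05 and 4.49 with LAV-BPIFB4, levels also seen for members detected on 0 arrays, so the size of this change is uncertain.

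**Figure D4:**
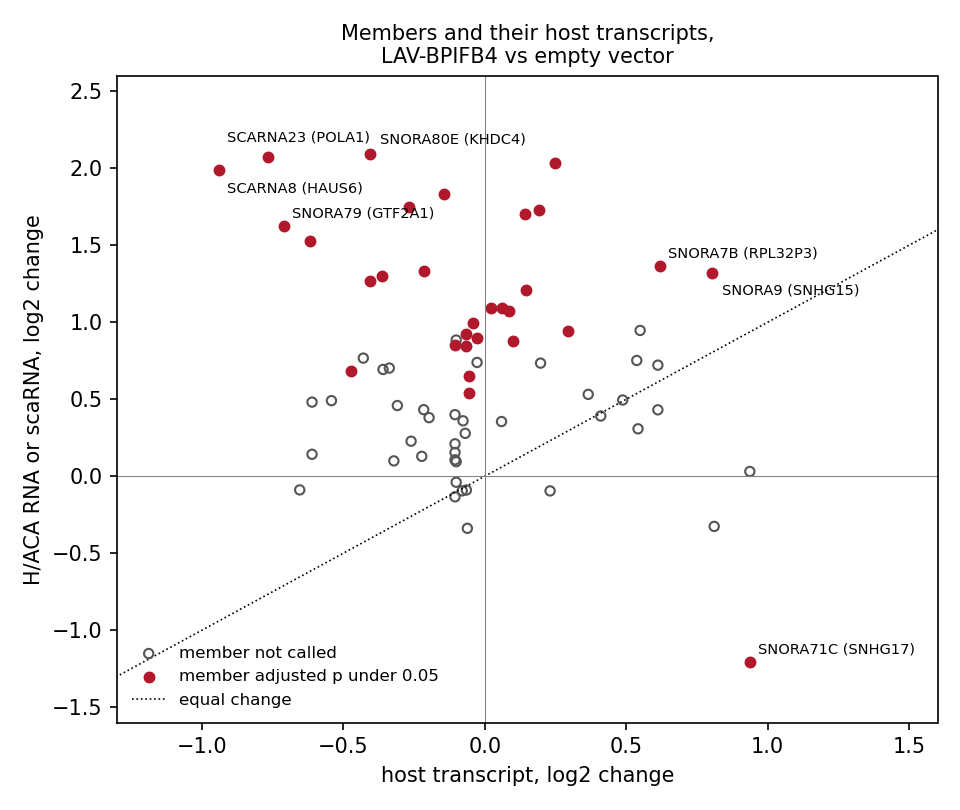
Log2 change with LAV-BPIFB4 against the empty vector for 70 members (vertical axis) and the transcripts of their host genes (horizontal axis). Filled circles are members with an adjusted p under 0.05 and the dotted line marks equal change. Of all 70 members, 59 lie above the line. Every risen member does so, which follows in large part from their being picked for a rise. SNORA71C (-1.20) with SNHG17 (0.94) is the filled circle at the lower right.

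Host start sites were read because many snoRNA hosts belong to the class whose transcripts begin with a C followed by a pyrimidine tract (5' TOP), the class of the ribosomal protein genes. The motif was taken as C followed by 4 bases that are each C or T, at the RefSeq start (GRCh38.p14) on the gene's strand. Of 53 hosts with a promoter entry, 15 had it at any of their entries, against 4.07% of 35116 single promoters. Some hosts had several entries and so more places to match, so the shares differ in unit. The 23 members of these 15 hosts, 2 of them scaRNAs, had a median change of 0.58 with LAV-BPIFB4, and 11 rose. The 45 members of the other hosts, 12 of them scaRNAs, had a median of 0.70, and 17 rose. Over all kept probes 3.64% rose. The sets differ in their share of scaRNAs, which had the larger median change, so their medians do not compare host starts. Shown are the windows of 20 bases before to 10 bases after the start for 6 hosts named above, with the first 5 transcribed bases in capitals. The RPL27A start is the 1 of the 6 that matches the motif. No sequence of an H/ACA RNA or of a probe is shown.
HAUS6 (chr9:19102895-19102924, minus strand), host of SCARNA8: gccggcgcacactgctcttcCTTAAgggcg
CEP295 (chr11:93661662-93661691, plus strand), host of SCARNA9: gcgatggctctcccgcaggcGCAGAaacgg
KHDC4 (chr1:155934404-155934433, minus strand), host of SNORA80E: cggaagtgacgagaggtggtAGTCGgatag
RPL27A (chr11:8682772-8682801, plus strand), host of SNORA3B: gagacttggcgaaggccttcCTTTTtcgtc
EIF4A1 (chr17:7572805-7572834, plus strand), host of SNORA67: tcgataggcgggcactccgcCCTAGtttct
SNHG17 (chr20:38435319-38435348, minus strand), host of SNORA71C: cttccttgtcgtgtggcctcAGTCCttcgc

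The genes that build and carry H/ACA particles are set here beside all kept probes. Of 19 listed genes 18 were measured, TERT being the other, and their median change was 0.10 with LAV-BPIFB4 and 0.03 with WT-BPIFB4. With LAV-BPIFB4 1 of the 18 rose and 0 fell (limma, adjusted over all kept probes), where 7.72% of all kept probes passed. With WT-BPIFB4 0 of the 18 passed, where 1.07% of all kept probes did, or 2 without WT-BPIFB4 replicate 1, where 7.59% did. The core protein genes DKC1, NHP2, NOP10 and GAR1 changed by -0.07, 0.08, 0.19 and 0.11 with LAV-BPIFB4. WRAP53, whose product brings scaRNAs and telomerase RNA to Cajal bodies, changed by 0.45, and PARN, a trimming nuclease of their ends, by -0.17.

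The 1 called gene was TERC, the telomerase RNA, whose end part is itself an H/ACA domain of the Cajal body type and which is made from its own promoter. TERC measured 9.27, 9.21 and 9.03 with LAV-BPIFB4, 8.25, 8.85 and 9.22 with WT-BPIFB4 and 8.61, 8.15 and 8.38 with the empty vector. The LAV-BPIFB4 arrays lay above all empty vector arrays, and WT-BPIFB4 replicate 1 lay among the empty vector arrays. It rose by 0.79 ± 0.20 SE with LAV-BPIFB4 (adjusted p = 0.0188), a call that was lost in 7 of 19 alternatives, among them leaving out any one LAV-BPIFB4 array. It changed by 0.39 with WT-BPIFB4 (adjusted p = 0.348), and by 0.65 without replicate 1 of that group, a change that passed (adjusted p = 0.0242).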

How the data were processed

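For each of 9 Illumina bead arrays the deposited non-normalized table holds an intensity per probe and its detection p-value, per the file headers, which the authors made with BeadStudio, per the submitters' processing notes (version not given in the sources used here). Another intensity is given for each sample in a deposited value table. Its LAV-BPIFB4 columns matched none of the 9 arrays, so it served as an alternative only.

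Intensities were background-corrected from the detection p-values, offset by 16, quantile-normalized and log2-transformed by neqc (limma 3.58.1, R 4.3.3). Kept were the 20914 of 47310 probes whose detection p-value was under 0.05 on 3 or more arrays. A model of 3 group means was fitted to all 9 arrays with lmFit and eBayes with an intensity trend. Tests were two-sided, with Benjamini-Hochberg adjustment over the kept probes and a threshold of 0.05. The steps were tested on simulated data. The number of arrays limits the precision. Leaving out an array kept the normalization and the probes of all 9.

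Members are platform symbols starting with SNORA or SCARNA, all 126 current in RefSeq (GRCh38.p14). Members, gene lists and tests were chosen with earlier results of these data known. Values on every array are given for the called members with the smallest adjusted p, at most 12. Hosts are genes whose RefSeq span holds the member, readthrough genes left out. The plan asked for the same strand, but the annotation used gave none, so strand was not considered. Alternatives covered background, offset, scaling, value table, filter, trend, array weights, groups fitted, a replicate block and leaving out each array.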

Additional observations from a re-analysis of the deposited data

How the results depend on the processing

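With LAV-BPIFB4 against the empty vector, 40 members were called, and 29 to 47 under most alternatives, with 25 after median scaling, 6 without the intensity trend and 15 to 46 when one array was left out (15 without LAV-BPIFB4 replicate 1). Over all kept probes 1615 were called. That count was 243 after median scaling (205 higher and 38 lower, against 762 and 853), 911 with the value table, 923 without the filter, 210 without the trend, 2962 with array weights, 2740 with the replicate block and 495 to 2544 when one array was left out. SNORA21, SNORA80E, SNORA67 and SNORA7B were called in every alternative that kept their probe.

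With WT-BPIFB4, 7 members were called. The count was 3 without background subtraction, 3 with an offset of 50, 4 with the value table, 2 without the filter, 0 without the trend, 19 with array weights, 18 with the replicate block, 1 with only the 2 groups compared and 1 to 22 when one array was left out. Over all kept probes 224 were called, with 52 after median scaling, 105 without the filter, 31 without the trend, 1120 with array weights, 829 with the replicate block, 87 with only the 2 groups compared and 67 to 1587 when one array was left out.

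Between the forms 0 members were called under every alternative run. Over all kept probes 4 were called after median scaling, which moved the median of all probes by 0.13, 1 with array weights and 17 with the replicate block. When one array was left out, the difference for SNORA71C ranged from -0.027 (without WT-BPIFB4 replicate 2) to 0.604 (without WT-BPIFB4 replicate 1). That for SNORA79 ranged from -0.073 (without WT-BPIFB4 replicate 1) to 0.835 (without WT-BPIFB4 replicate 3), and none of these passed.

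Risen members whose host did not rise with LAV-BPIFB4 numbered 28, with 18 after median scaling, 16 with the stricter filter (fewer pairs tested), 5 without the trend and 12 to 30 when one array was left out. In the main fit 3.64% of all kept probes rose, so a host that did not rise was the usual case. Of the 18 particle genes 1 was called with LAV-BPIFB4, with 0 after median scaling or without the trend, 2 with array weights and 0 to 1 when one array was left out, and with WT-BPIFB4 0 were called, with 0 to 2 when one array was left out. Against the empty vector, the changes of the 12 genes plotted by array, SNHG17 and TERC kept their direction under every alternative run for them; the other named genes were not followed through the alternatives. The replicate numbers were not taken as pairs, because same-numbered arrays correlated at 0.00 to 0.22 in their deviations from the group means, with 4 of 9 pairs over 0.1, although 8 of 9 arrays correlated best with their own number. The cause of these changes was not tested.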
